A study of Mus musculus with 42 samples.

Results

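The mitochondrial genome of the mouse was read out here in tumours of mice given BXCL701 or vehicle. All rows of the deposited expression table whose gene symbol starts with mt- were taken, which gave 37 of 47729 rows: 22 transfer RNAs, 2 ribosomal RNAs and 13 protein-coding genes. The tumours were grown under the skin from Pan02, a mouse pancreatic adenocarcinoma cell line, in wild-type mice, which the series names as C57BL/6 and the treatment protocol as C57BL/6J or Balb/c without saying which mouse was which. The ages of the mice were not analysed here. BXCL701, also called talabostat, is an oral inhibitor of dipeptidyl peptidases; it was given daily by gavage at 20 ug per mouse, and vehicle mice received PBS. There were 14 groups of 3 mice, each mouse giving 1 tumour and 1 RNA-seq library. BXCL701 tumours were harvested on day 1 at 1, 8 and 16 h, and on days 7 and 14 at 0, 1, 8 and 16 h; vehicle tumours were harvested at 0 h of days 1, 7 and 14. Treatment and harvest hour therefore change together in every comparison except at 0 h of days 7 and 14, and elsewhere they cannot be told apart. All comparisons on a given day share the same 3 vehicle libraries. Values in the text are the authors' scaled expression estimates unless a log2 FPKM is named, and their sum per library was between 19133149 and 26633378.

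The mitochondrial genome is a small circle that encodes a few subunits of the respiratory chain, the RNAs of the mitochondrial ribosome and the tRNAs that it needs. Both strands are transcribed into long precursors, from which tRNAs are cut out and the messenger and ribosomal RNAs released, so that the genes of a strand share a promoter and differ in abundance by processing and decay. All other subunits of the respiratory chain and all proteins of the mitochondrial ribosome come from nuclear genes. Members below are grouped as ribosomal RNAs (mt-Rnr1, mt-Rnr2), complex I (mt-Nd1, mt-Nd2, mt-Nd3, mt-Nd4, mt-Nd4l, mt-Nd5 on the heavy strand's transcript and mt-Nd6 on the light strand's), complex III (mt-Cytb), complex IV (mt-Co1, mt-Co2, mt-Co3) and ATP synthase (mt-Atp6, mt-Atp8).

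The tRNAs were listed at 0 in all 42 libraries. They are 59 to 75 bases long, and each of the 1022 rows of the table with an exon length up to 75 bases, mitochondrial or nuclear, was also at 0 in every library, so the zeros apply to short rows of the table in general. The longest and the shortest are shown because they bound that length range.
mt-Tl1: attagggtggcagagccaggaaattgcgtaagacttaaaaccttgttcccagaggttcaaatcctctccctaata
mt-Ts2: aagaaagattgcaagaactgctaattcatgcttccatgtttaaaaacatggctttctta
The first is a leucine tRNA at chrM:2676-2750 and the second a serine tRNA at chrM:11613-11671, both on the plus strand (GRCm38, GENCODE M21). The 15 ribosomal and protein-coding members were above 0 in all 42 libraries and all passed the filter on low values (3 or more libraries at 10 or above), as did 16613 genes in all.

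Several mitochondrial rows share sequence with other rows, which bears on every value below. A stretch of chromosome 1 holds nuclear copies of part of the mitochondrial genome, 7 of which match a member at 99% identity or more over at least 200 bases. The first 60 bases of mt-Co2 (chrM:7013-7072, plus strand) and of its copy Gm28661 (chr1:24615506-24615565, minus strand) show such a pair, with the first codon in capitals.
mt-Co2: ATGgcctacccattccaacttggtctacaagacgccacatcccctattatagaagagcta
Gm28661: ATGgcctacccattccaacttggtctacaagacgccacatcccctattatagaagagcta
These 2 rows are identical over the 681 bases aligned. mt-Nd3 and its copy Gm28438 differ at 1 of 345 bases, T3C counted from the 5′ end of mt-Nd3, which is in capitals in the first 28 bases of each (chrM:9459-9486, plus strand, and chr1:24613092-24613119, minus strand).
mt-Nd3: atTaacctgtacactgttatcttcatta
Gm28438: atCaacctgtacactgttatcttcatta
A read from most of such a stretch cannot be assigned to either row by its sequence. mt-Atp8 and mt-Atp6 also overlap each other in different frames, and the 43 bases they share (chrM:7927-7969, plus strand) are shown with the start codon of mt-Atp6 and the stop codon of mt-Atp8 in capitals.
mt-Atp8 and mt-Atp6: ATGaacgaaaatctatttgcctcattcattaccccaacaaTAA
mt-Nd4l and mt-Nd4 share 7 bases. The 47 bases around them (chrM:10147-10193, plus strand) have the shared ones in capitals.
mt-Nd4l and mt-Nd4: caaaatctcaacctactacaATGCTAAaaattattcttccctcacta
mt-Nd6 is the only protein-coding gene on the minus strand of the map, and its 3′ end overlaps that of mt-Nd5 by 14 bases. The last 40 bases of each gene (chrM:13526-13565, plus strand, and chrM:13552-13591, minus strand) have the overlap in capitals.
mt-Nd5: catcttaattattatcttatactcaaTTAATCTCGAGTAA
mt-Nd6: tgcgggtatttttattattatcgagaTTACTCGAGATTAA
Whether reads were counted by strand is not given in the sources used here, so reads from the overlap, or from transcripts antisense to mt-Nd6, cannot be told apart from reads of mt-Nd6.

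The nuclear copies carried much of the signal of some members. The median ratio of copy to member over 42 libraries was 14.6 for Gm28661 over mt-Co2, 14.0 for Gm28437 over mt-Co3 and 10.9 for Gm10925 over mt-Atp6. It was 1.42 for Gm10222 over mt-Nd4l, 1.2 for Gm28438 over mt-Nd3 and 0.058 for Gm29216 over mt-Co1, whose copy covers only bases 1063 to 1545 of the gene. Gm28439, identical to the first 876 bases of mt-Nd4, was at most 0.002 in any library. The sum of member and copy varied less between libraries than the member: the SD of log2 values was 0.21 for the sum and 0.47 for mt-Co2 alone, 0.22 and 0.63 for mt-Co3, 0.24 and 0.37 for mt-Atp6, and 0.29 and 0.43 for mt-Nd3. The split also moved in single libraries. Gm28438 had a value of 0.031 in vehicle day 1 replicate 2, 25.8 in vehicle day 14 replicate 2 and 44.3 in BXCL701 day 7 8 h replicate 3, against at least 1488 in the other 39 libraries, and mt-Nd3 was highest in those 3 libraries, at 4460, 10672 and 4087. mt-Nd3 and its copy summed to 4207, 4460 and 4373 in the 3 vehicle libraries of day 1, where mt-Nd3 alone was 1698, 4460 and 2706. For mt-Co1, mt-Co2, mt-Co3, mt-Atp6, mt-Nd3 and mt-Nd4l, the value of a member alone is therefore uncertain. Levels and correlations below are of the genes alone unless the sum is named, and where a difference of one of these 6 genes is named, that of its sum follows.

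**Figure D1:**
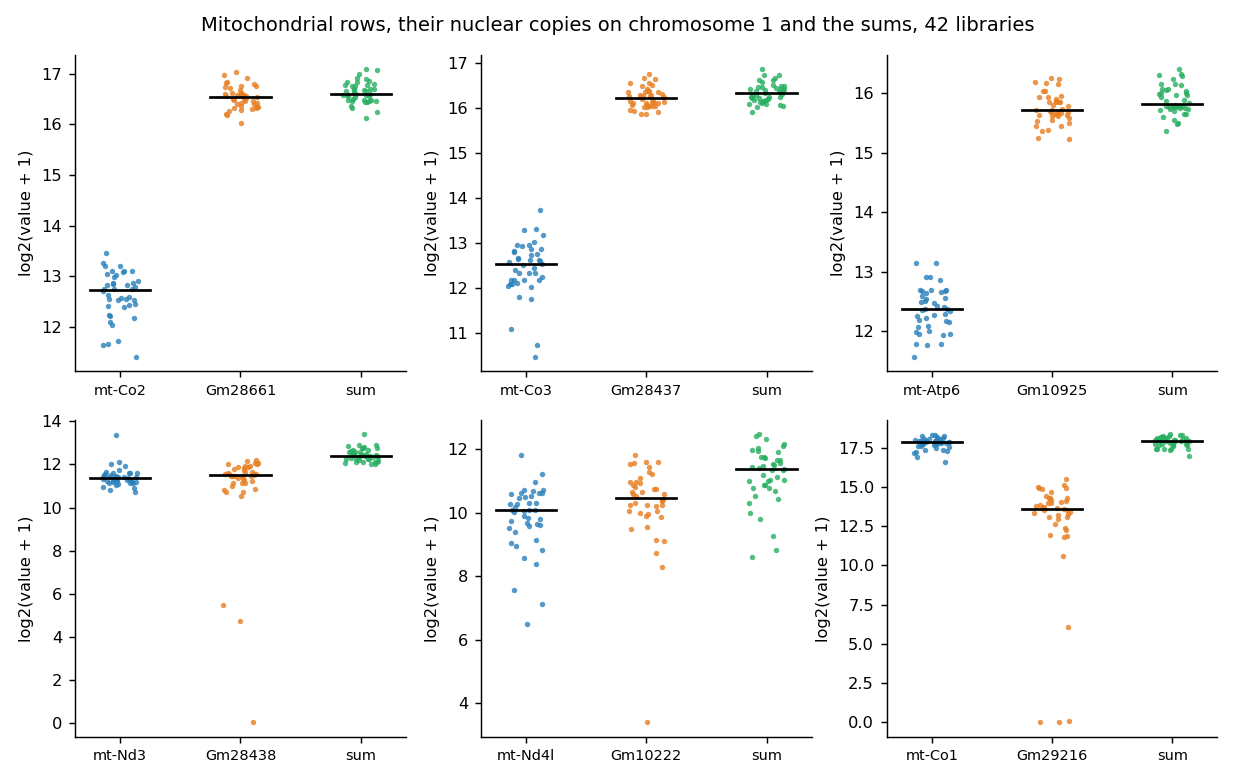
Mitochondrial genes (blue), the near-identical nuclear copy of each on chromosome 1 (orange) and the sum of both (green), as log2(value + 1) in 42 libraries, with black lines at the medians. The sum spreads less than the member alone, with SDs of 0.21 against 0.47 for mt-Co2 and 0.22 against 0.63 for mt-Co3.

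Per unit of length the members spanned a wide range. On the authors' log2 FPKM scale, the median level over 42 libraries was highest for mt-Co1, the catalytic core subunit of cytochrome c oxidase, at 13.09, and for mt-Atp8, a small subunit of ATP synthase, at 12.98. mt-Cytb, the core of complex III, had 11.91, and of the complex I subunits mt-Nd1 had 11.55, mt-Nd4 11.17, mt-Nd6 10.53, mt-Nd2 10.52, mt-Nd3 10.36, mt-Nd4l 9.82 and mt-Nd5 9.26. mt-Co2 had 9.52, mt-Atp6 9.18 and mt-Co3 9.05. The ribosomal RNAs were lowest, at 7.87 for mt-Rnr1 and 6.95 for mt-Rnr2, the RNAs of the small and large subunits of the mitochondrial ribosome. How RNA was selected is not given in the sources used here, and the level of ribosomal RNA depends on it. Neighbours in this order lay close together: mt-Nd6 and mt-Nd2 differed by less than the SD of either over the libraries (0.32 and 0.35 on log2 of the scaled value), as did mt-Co1 and mt-Atp8 (0.37 and 0.69).

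The scales placed mt-Atp8 far apart. Divided by gene length, the median scaled value was 7.16 per base for mt-Atp8 and 156 per base for mt-Co1, while their log2 FPKM was nearly the same. mt-Atp8, of 204 bases, is the shortest protein-coding member, and the authors' FPKM depends on the length they used, which is not given in the sources used here. Summing the copies moved mt-Co2 to 146, mt-Co3 to 105 and mt-Atp6 to 84.6 per base, from 9.93, 7.53 and 7.74 for the genes alone, which put these 3 genes next after mt-Co1 with its copy, at 165 per base. Which genes of the heavy strand's transcript ranked high thus depended on the copies.

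**Figure D2:**
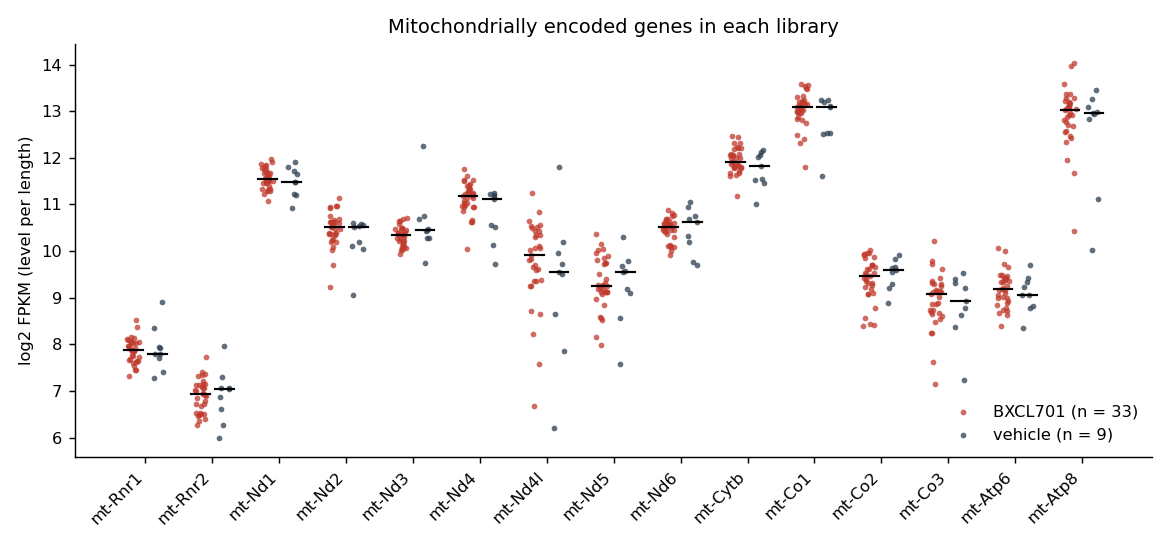
Level per length (log2 FPKM) of the 15 measured mitochondrially encoded genes in each library, BXCL701 (red, n = 33) left of vehicle (dark, n = 9) for each gene. mt-Co1 and mt-Atp8 are highest and the ribosomal RNAs mt-Rnr1 and mt-Rnr2 lowest, and the points of both treatments cover much the same range.

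All 37 members together made up a median of 2.33% of the summed values of a library, or 3.47% with the copies. The share was 2.02% ± 0.218 (SD, n = 9) in BXCL701 libraries of day 1, against 1.45% ± 0.357 (n = 3) in vehicle libraries of day 1. It was 2.35% ± 0.535 (n = 12) with BXCL701 on day 7, against 2.50% ± 0.0588 (n = 3) with vehicle on day 7. On day 14 it was 2.58% ± 0.365 (n = 12) with BXCL701 and 2.30% ± 0.477 (n = 3) with vehicle. These shares are of members alone, and shares with copies are not given by group here. Copies made up 27.7% of members plus copies in BXCL701 day 14 1 h replicate 3 and 47.5% in vehicle day 1 replicate 2, the extremes. A difference in share between groups therefore cannot be told apart from a difference in the split. The lowest share, 1.04%, or 1.99% with copies, was in vehicle day 1 replicate 2. The highest, 3.24%, or 4.75% with copies, was in BXCL701 day 14 8 h replicate 2. mt-Co1 alone gave a median of 47.2% of the member sum, mt-Cytb 15.3%, mt-Nd4 10.9% and mt-Nd1 9.10%, with mt-Co2 at 1.34% and mt-Co3 at 1.13%. With copies in both parts, mt-Co1 gave 33.1%, mt-Co2 13.8%, mt-Co3 11.1% and mt-Cytb 10.1%. mt-Atp6 then gave 8.27%, mt-Nd4 7.35% and mt-Nd1 6.19%, so this order depended on the copies too. The ribosomal RNAs gave 0.0325% of a library, with the highest share, 0.0671%, in vehicle day 14 replicate 2.

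Most pairs of members varied together, but not all. Of 105 pairs of members, 79 had a positive Pearson correlation of log2 values over the 42 libraries, which share the authors' scaling and depth. In a permutation test, 54 positive and 9 negative pairs had an adjusted p below 0.05. Each of the 9 negative pairs held mt-Co2 or mt-Nd3 alone, whose values are uncertain. Pairs were not run on sums with copies. The closest pairs were mt-Co1 with mt-Nd4 (r = 0.92, rho = 0.88), mt-Nd2 with mt-Co1 (r = 0.90, rho = 0.81) and mt-Rnr1 with mt-Rnr2 (r = 0.90, rho = 0.87). mt-Rnr1 and mt-Rnr2 are neighbours at the start of the heavy strand's transcript. The correlation of mt-Nd1, which follows them, was 0.46 with mt-Rnr1 and 0.88 with mt-Cytb, at the far end of the same transcript. mt-Nd1 was the steadiest member, with a highest value 1.83 times the lowest, and mt-Nd4l the most variable, with a ratio of 40.9.

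Part of this variation moved with a property of the libraries that concerned all genes. For each library, a slope on log2 transcript length was computed from the deviations of 11487 well measured genes from their means over all libraries; it is positive where long transcripts read relatively high. This length index ran from -0.41 in BXCL701 day 7 8 h replicate 3 to 0.33 in vehicle day 7 replicate 2. Across 42 libraries, mt-Nd5, the longest protein-coding member, followed it with r = 0.88 and rho = 0.84, and r was 0.84 without the 2 libraries farthest from the median index. For mt-Nd4l, r was 0.82 and rho 0.78, with r = 0.78 without those 2 libraries, and for mt-Atp8 0.77 and 0.66, with r = 0.63. mt-Co2 alone ran the other way, with r = -0.55 and rho = -0.52, and mt-Nd3 alone with r = -0.51 and rho = -0.49. With the copies added, r was -0.28 (permutation test, p = 0.113 adjusted over 21 relations) for mt-Co2, 0.09 for mt-Nd3 and 0.91 for mt-Nd4l, so the negative relation of mt-Nd3 was not seen in its sum and that of mt-Co2 did not pass the test. Both mt-Nd4l and mt-Atp8 are short, so the sign did not follow the length of the member. mt-Nd6, which has no near-identical copy, ran against the index with r = -0.32 and rho = -0.37. Its adjusted p in the permutation test was 0.0645 for r and 0.0381 for rho. Without the 2 libraries farthest from the median index, its r was -0.47. mt-Nd2 (r = 0.68), mt-Nd4 (r = 0.56) and mt-Co1 (r = 0.63, or 0.47 with its copy) had a positive relation. Without the 2 libraries farthest from the median index, r was 0.49 for mt-Nd2 and 0.34 for mt-Nd4. For mt-Co1 it was then 0.41 alone and 0.25 with its copy. The rho of mt-Co1 with its copy had an adjusted p of 0.0507 in the permutation test over all 42 libraries. mt-Nd1 (r = 0.10) and mt-Rnr1 (r = -0.03) showed little relation to it. Vehicle day 1 replicate 2, with an index of -0.37, had the lowest mt-Nd5 value of all libraries, 7394, and vehicle day 7 replicate 2, with the highest index, the highest, 40648. What sets the index was not tested.

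**Figure D3:**
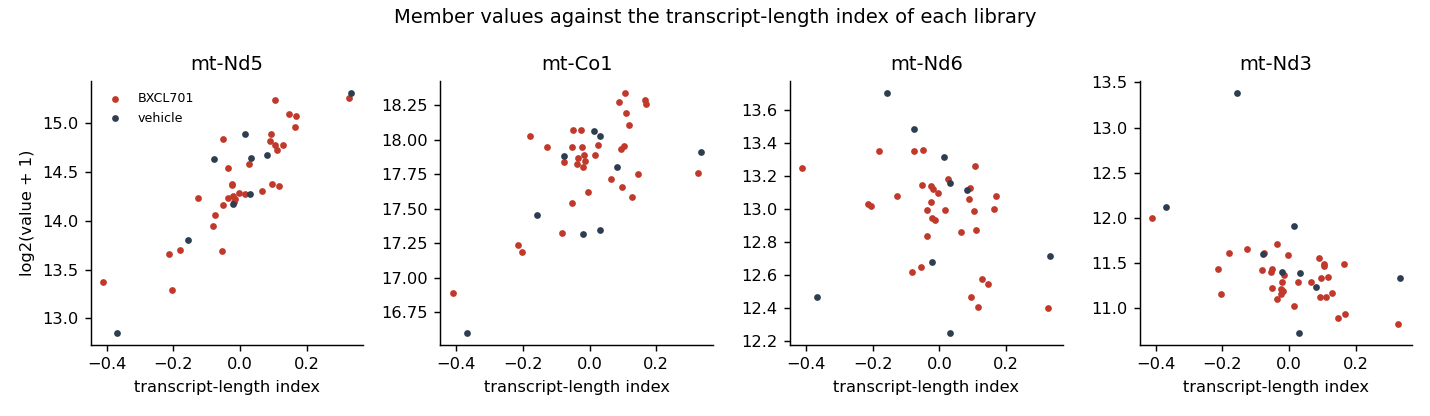
log2(value + 1) of mt-Nd5, mt-Co1, mt-Nd6 and mt-Nd3 in 42 libraries (BXCL701 red, vehicle dark) against the length index of each library, the slope of all genes' deviations on log2 transcript length. mt-Nd5 follows the index with r = 0.88, mt-Nd3 runs against it with r = -0.51, and the vehicle library highest in mt-Nd6 and mt-Nd3 is the same one, replicate 2 of day 14.

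Some vehicle libraries stood apart from their groups. Vehicle day 14 replicate 2 had the highest mt-Rnr1, mt-Rnr2, mt-Nd6 and mt-Nd3 values of all 42 libraries and the lowest mt-Nd4l value. It also had the lowest summed level of 6 leukocyte markers, 20150 against up to 75414. Vehicle day 1 replicate 2 had the lowest mitochondrial share. Vehicle day 7 replicate 2 had the highest mt-Nd4l value of all libraries, 3625, against 1235 and 1276 in replicates 1 and 3. It also had the highest mt-Nd5 value and length index. Since each vehicle group has 3 libraries, most test results that rest on the named libraries of days 1 and 14 are given with and without them. Differences from vehicle day 7 are given only with all libraries of that group. Shares of groups, and their ratios of mt-Nd6 to other complex I genes, are given with all libraries only. In bulk tumours, a lower value of a member can mean fewer cells that express it or less of its RNA per cell, and these cannot be told apart here.

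BXCL701 against vehicle on day 14 was the only day on which members passed the test: 3 of 15 fell and none rose at an adjusted p below 0.05, where 3.29% of all 16613 tested genes were called. mt-Rnr1, the small ribosomal RNA, fell by 0.51 on the log2 scale (SE 0.14, adjusted p = 0.0388). mt-Nd6, the complex I subunit of the light strand, fell by 0.51 (SE 0.14, adjusted p = 0.0360), and mt-Nd3, a small membrane subunit of complex I, by 0.97 (SE 0.24, adjusted p = 0.0207). Of the 15 members, 7 had a positive difference, the median difference was -0.07, and that of all tested genes was -0.01. With library sums over all other rows made equal, the median of the members was 0.01.

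The values behind these calls were uneven in vehicle. mt-Rnr1 was 3117 at the lowest, 3582 at the median and 5555 at the highest of the 12 BXCL701 tumours of day 14, against 5041, 8112 and 3773 in the 3 vehicle tumours of day 14. mt-Rnr2 was 2488, 3480 and 6096 at the lowest, median and highest with BXCL701, against 4602, 8026 and 3791 with vehicle, a difference of -0.52 (SE 0.18, adjusted p = 0.112). For both ribosomal RNAs the groups overlapped, and vehicle replicate 2 stood above every BXCL701 tumour. mt-Nd6 was 5433, 8318 and 10456 with BXCL701, against 10196, 13338 and 11455 with vehicle, and the highest BXCL701 tumours reached past the lowest vehicle tumour. mt-Nd3 was 1969, 2620 and 3132 with BXCL701, against 3846, 10672 and 3113 with vehicle, where only the lowest vehicle tumour lay inside the BXCL701 range. Summed with its copy, mt-Nd3 was 4550, 5924 and 7285 with BXCL701 and 6132, 10698 and 7696 with vehicle, a difference of -0.42 (SE 0.14, adjusted p = 0.0735).

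Without vehicle day 14 replicate 2, none of the 15 members was called by limma, 1 had an unadjusted p below 0.05, and 1 gene in the whole table was called. mt-Rnr1 then differed by -0.21 (adjusted p = 0.977), mt-Nd6 by -0.41 (adjusted p = 0.594) and mt-Nd3 by -0.43 (adjusted p = 0.860). Without vehicle day 14 replicate 1, 1 member, mt-Nd3, was called, at -1.17 (adjusted p = 0.0336), with 217 genes called in the table. Without vehicle day 14 replicate 3, 4 members were called, all lower with BXCL701, with 2021 genes called. 1 member was called when BXCL701 0 h replicate 1 or 3, 1 h replicate 2 or 16 h replicate 1 of that day was left out. With the copies summed and all libraries in the model, mt-Rnr1 and mt-Nd6 were called and mt-Nd3 was not.

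**Figure D4:**
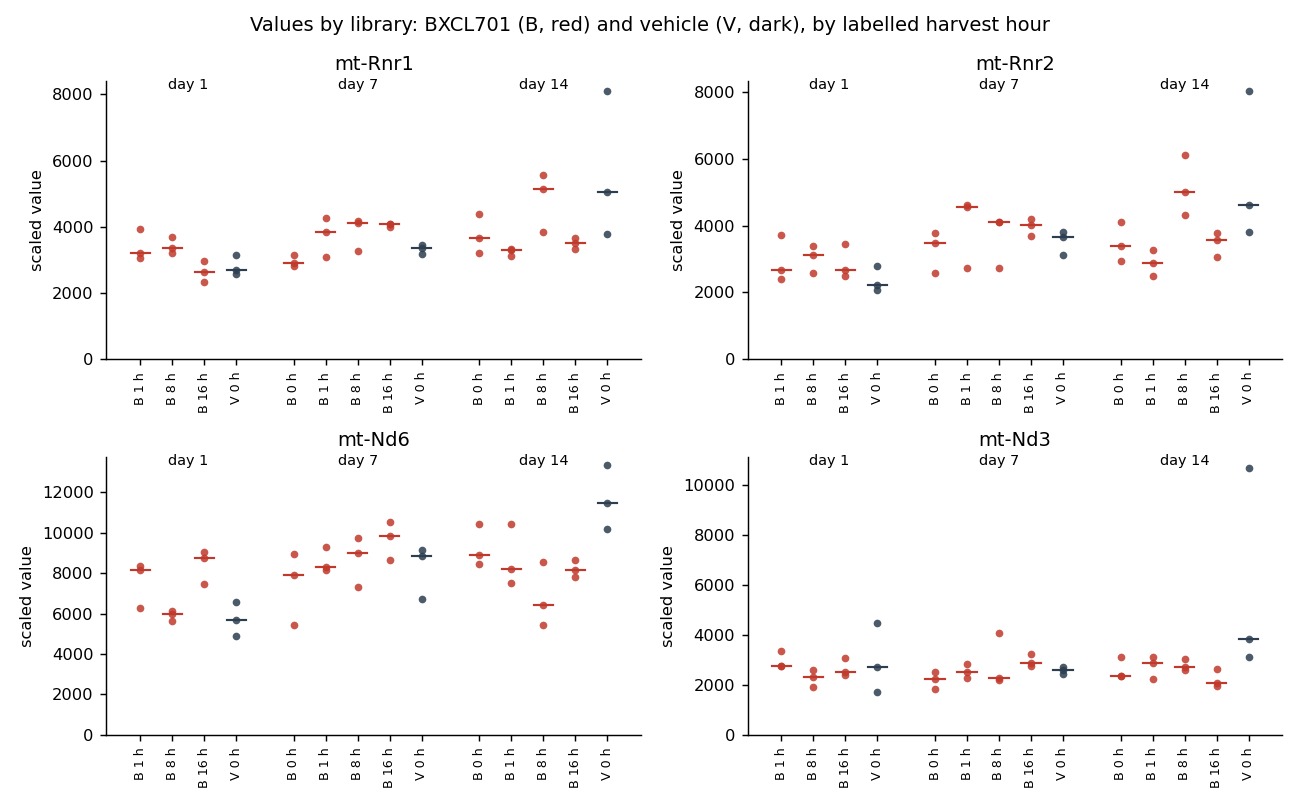
Scaled values of mt-Rnr1, mt-Rnr2, mt-Nd6 and mt-Nd3 in each library, by day and labelled harvest hour, with BXCL701 (B, red) left of vehicle (V, dark) within each day and short lines at the group medians. On day 14, vehicle replicate 2 lies at 8112, 8026, 13338 and 10672, above every other library in each panel.

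The other members of day 14 were not called. Among complex I subunits, mt-Nd4 differed by 0.40 (SE 0.19, adjusted p = 0.244) and mt-Nd4l by 1.36 (SE 0.65, adjusted p = 0.264), with mt-Nd4l at a median of 978 (range 449 to 1585) with BXCL701 and 1077, 88.5 and 499 with vehicle. mt-Nd4l with its copy differed by 0.44 (SE 0.55). mt-Nd4 differed by 0.10 and mt-Nd4l alone by 0.34 without vehicle day 14 replicate 2, the lowest vehicle library in mt-Nd4l. Among complex IV subunits, mt-Co1 differed by 0.25 (SE 0.18), mt-Co2 by -0.56 (SE 0.22, adjusted p = 0.150) and mt-Co3 by -0.46 (SE 0.39). With their copies mt-Co1 differed by 0.15 (SE 0.13), mt-Co2 by -0.23 (SE 0.10) and mt-Co3 by -0.28 (SE 0.10). mt-Co1 alone differed by 0.08 and mt-Co3 alone by -0.28 without vehicle day 14 replicate 2. mt-Cytb differed by 0.01 (SE 0.14), and by -0.15 without that library. mt-Atp6 differed by 0.02 (SE 0.19) alone and by -0.25 (SE 0.13) with its copy.

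By hour on day 14, single members were called. At 1 h, mt-Rnr1 fell by 0.72 (SE 0.18, adjusted p = 0.0443), with 3117, 3302 and 3327 in BXCL701 tumours against 5041, 8112 and 3773 in vehicle tumours of 0 h, where 0.789% of genes were called; the groups did not overlap. At 8 h, mt-Nd6 fell by 0.79 in limma (SE 0.18, adjusted p = 0.0220), where 1.25% of genes were called. It was 6418, 8560 and 5433 in BXCL701 tumours against 10196, 13338 and 11455 in vehicle tumours, and these groups did not overlap either. How many of all tested genes separated in this way at 1 h or 8 h was not counted. Both members were picked by the test on the same libraries, so their separation adds nothing to it. At 8 h the ribosomal RNAs were near vehicle, with mt-Rnr1 at 5144, 3830 and 5555 with BXCL701 and a difference of -0.17 (SE 0.18), which was 0.13 without vehicle replicate 2. At 0 h and 16 h no member was called by limma, with 3 and 5 at an unadjusted p below 0.05, against 0.783% and 0.0722% of genes called. mt-Nd3 alone differed by -0.96 (SE 0.30) at 0 h and by -1.18 (SE 0.30, adjusted p = 0.0741) at 16 h. With its copy it differed by -0.41 (SE 0.17) and -0.50 (SE 0.17), and alone but without vehicle replicate 2 by -0.42 and -0.64. These 4 comparisons use the same 3 vehicle libraries. Without vehicle day 14 replicate 3, 3 members were called at 0 h, 3 at 1 h, 2 at 8 h and 3 at 16 h. Over the 4 hours together, leaving it out called 2021 genes in the whole table, and the number by hour is not given here. Without replicate 2 no member was called at any of these hours. The call at 1 h was lost without vehicle replicate 1 or 2 or any of the 3 BXCL701 libraries of 1 h, and the call at 8 h without vehicle replicate 2 or BXCL701 8 h replicate 1 or 3.

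On day 1, no member was called by limma in BXCL701 against vehicle, and 0% of all tested genes were. 14 of 15 members had a positive difference with a median of 0.41, against 0.03 for all tested genes, and 0.20 with the length index in the model. 5 had an unadjusted p below 0.05. mt-Nd4, a core membrane subunit of complex I, was 39165 at the lowest, 49757 at the median and 58746 at the highest of 9 BXCL701 tumours, against 35880, 23212 and 36577 in the vehicle tumours, a difference of 0.63 (SE 0.19, adjusted p = 0.906). mt-Cytb was 60707, 66995 and 86921 with BXCL701, against 53827, 45328 and 56222 with vehicle, a difference of 0.41 (SE 0.15, adjusted p = 0.906). For both genes every BXCL701 tumour lay above every vehicle tumour, and vehicle replicate 2 was the lowest. How many of the other members or of all tested genes separated in this way was not counted, so it is not read as a result about these genes. mt-Co1 differed by 0.50 (SE 0.19), or 0.39 (SE 0.14) with its copy, mt-Nd2 by 0.51 (SE 0.21) and mt-Nd6 by 0.35 (SE 0.14), all at the same adjusted p. Without vehicle day 1 replicate 2, the median difference of the members was 0.25, all 15 were positive, and 1 had an unadjusted p below 0.05. mt-Nd4 then differed by 0.41, mt-Co1 by 0.25 and mt-Nd2 by 0.22, and mt-Nd6 by 0.35 as before.

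By hour on day 1, no member was called by limma at 1 h (0% of genes called), 8 h (0% of genes called) or 16 h (0.012% of genes called), and 4, 4 and 5 members had an unadjusted p below 0.05. The smallest unadjusted p-values of the 3 hours were at 16 h, with mt-Nd4 at 0.75 (SE 0.23, unadjusted p = 0.00321) and mt-Nd6 at 0.57 (SE 0.18, unadjusted p = 0.00298), both at an adjusted p of 0.956. These fits include vehicle day 1 replicate 2, the lowest of all libraries in mt-Nd4, and the differences by hour are not given without it.

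On day 7, differences between treatments were small beside their errors. No member was called by limma, none had an unadjusted p below 0.05, 7 of 15 were positive and the median difference was 0.00 after rounding, with 0.00602% of genes called. mt-Nd1 had a median of 46498 (range 38342 to 61761) with BXCL701 and 49202, 40871 and 47564 with vehicle, a difference of 0.03 (SE 0.09), and mt-Nd6 a median of 8808 (range 5413 to 10523) with BXCL701 and 9142, 6741 and 8867 with vehicle, a difference of 0.05 (SE 0.14). The widest differences were in the members that followed the length index, mt-Nd4l at -0.93 (SE 0.65), or -0.59 (SE 0.55) with its copy, and mt-Atp8 at -0.46 (SE 0.44). mt-Nd4l was 1235, 3625 and 1276 in the vehicle tumours of day 7, and its difference without vehicle replicate 2 is not given here. By hour, no member was called by limma on day 7 at 0 h (0% of genes), 1 h (0%), 8 h (0.301%) or 16 h (0%), with 1, 0, 1 and 2 members at an unadjusted p below 0.05. At 0 h the member was mt-Co2, at -0.75 (SE 0.27) alone and -0.15 (SE 0.13) with its copy.

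At 0 h of days 7 and 14 together, the comparison in which hour was matched, no member was called by limma and 4 had an unadjusted p below 0.05, where 0.512% of genes were called. 4 of 15 differences were positive and the median was -0.15. mt-Rnr1 was 2817 at the lowest, 3179 at the median and 4386 at the highest of 6 BXCL701 tumours, against 3180, 3611 and 8112 of 6 vehicle tumours, a difference of -0.35 (SE 0.13, adjusted p = 0.216). mt-Nd3 differed by -0.60 (SE 0.21, adjusted p = 0.213), mt-Co2 by -0.57 (SE 0.19, adjusted p = 0.183) and mt-Rnr2 by -0.36 (SE 0.16, adjusted p = 0.421). With their copies, mt-Nd3 differed by -0.19 (SE 0.12) and mt-Co2 by -0.18 (SE 0.09). Without vehicle day 14 replicate 2, mt-Rnr1 differed by -0.20 in limma (adjusted p = 0.847), mt-Nd3 alone by -0.33 and mt-Rnr2 by -0.20, and no member was called. Without replicate 3 instead, 2 members were called, and the number over all genes in that fit is not given here. The test of whether the 0 h difference changed between day 14 and day 7 called no member by limma, with 0 at an unadjusted p below 0.05 and 0% of genes called. The difference of day 14 minus that of day 1, over 1, 8 and 16 h, called no member either, with 6 at an unadjusted p below 0.05 and 0% of genes called. Its largest statistic was for mt-Nd6, at -0.92 (SE 0.20, adjusted p = 0.414).

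**Figure D5:**
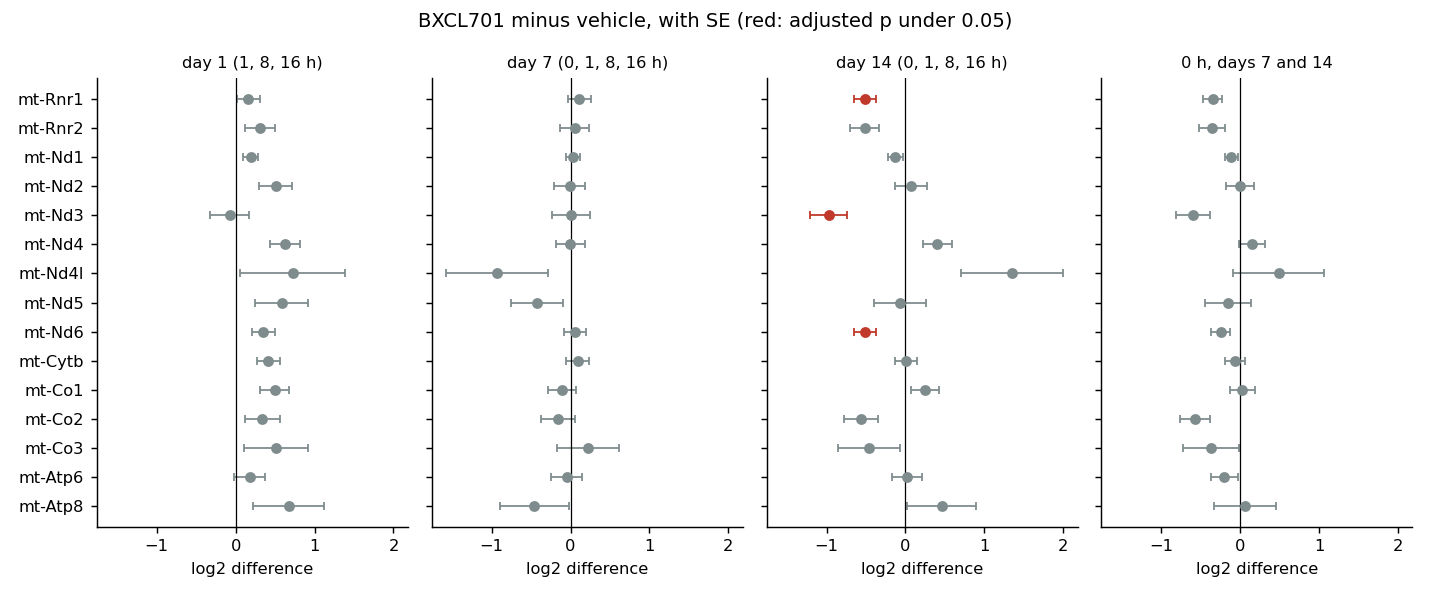
log2 difference of BXCL701 minus vehicle with SE for the 15 measured members, each without its copies, on day 1, day 7, day 14 and at 0 h of days 7 and 14. Red points passed an adjusted p of 0.05; they are mt-Rnr1, mt-Nd6 and mt-Nd3 on day 14, at -0.51, -0.51 and -0.97.

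Among vehicle tumours alone, members passed the test in day 14 against day 1 and in no other comparison of days. On day 14 against day 1, 4 of 15 members rose and none fell, where 0.0602% of genes, 10 in all, were called. 14 of 15 differences were positive, with a median of 0.65. mt-Nd6 rose by 1.03 (SE 0.18, adjusted p = 0.0304), at 10196, 13338 and 11455 on day 14 and 4878, 5663 and 6572 on day 1. mt-Rnr1 rose by 0.94 (SE 0.18, adjusted p = 0.0336), at 5041, 8112 and 3773 on day 14 and 2558, 2707 and 3132 on day 1. mt-Rnr2 rose by 1.14 (SE 0.23, adjusted p = 0.0464), and mt-Nd1, the first protein-coding gene after the ribosomal RNAs, by 0.61 (SE 0.12, adjusted p = 0.0336), at 59384, 47737 and 54809 on day 14 and 35482, 33819 and 36084 on day 1. In each of these 4 genes every day 14 tumour lay above every day 1 tumour. How many of all tested genes separated in this way was not counted, and these 4 were picked by the test on the same libraries. Their separation is therefore no further evidence. No member was called, and no gene in the table, when replicate 1 or 2 of vehicle day 1 or of vehicle day 14 was left out, with 6 to 9 members at an unadjusted p below 0.05 in limma. Leaving out vehicle day 14 replicate 3 instead gave 5 members and 1018 genes. With copies added, mt-Nd3 was called too, at 0.87 (SE 0.17, adjusted p = 0.0302), against 0.88 (SE 0.30, adjusted p = 0.233) alone.

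On vehicle day 7 against vehicle day 1, no member was called by limma, 9 had an unadjusted p below 0.05, and 0% of genes were called. 14 of 15 were positive with a median of 0.58. mt-Co1 differed by 0.82 (SE 0.23), or 0.68 (SE 0.17) with its copy, mt-Nd4 by 0.80 (SE 0.23) and mt-Nd1 by 0.38 (SE 0.12), all at an adjusted p of 0.263. Vehicle day 1 replicate 2 was the lowest of all libraries in these genes, at 99531, 23212 and 33819. The differences without it are not given here. On vehicle day 14 against vehicle day 7, no member was called, 5 had an unadjusted p below 0.05, and 0% of genes were called. 7 of 15 were positive with a median of -0.01, or 10 of 15 with a median of 0.23 when copies were summed. mt-Rnr1 differed by 0.69 (SE 0.18, adjusted p = 0.119), and mt-Nd4l by -2.30 (SE 0.82) alone and by -0.85 (SE 0.70) with its copy. Vehicle day 7 replicate 2, the highest of all libraries in mt-Nd4l, was kept in all fits named in this paragraph. When vehicle day 14 replicate 2 was left out, mt-Rnr1 differed by 0.39 in limma (adjusted p = 0.891) and mt-Nd4l alone by -1.28. No member was then called. Without replicate 3, 3 members were called, and the number over all genes in that fit is not given here. The labels do not give the tumours' size, and size was not tested.

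Among BXCL701 tumours, day 14 against day 1 over 1, 8 and 16 h called 3 of 15 members, where 1.27% of genes were called. mt-Nd1 rose by 0.29 (SE 0.07, adjusted p = 0.0279) and mt-Co1 by 0.51 (SE 0.13, adjusted p = 0.0463). mt-Co2 alone fell by 0.71 (SE 0.16, adjusted p = 0.0219), but with its copy Gm28661, identical to it over the 60 bases printed above and beyond, the difference was 0.18 (SE 0.07, adjusted p = 0.200), so its direction turned with the copy. mt-Co1 with its copy rose by 0.49 (adjusted p = 0.0114). mt-Co1 alone passed the test in 8 of 12 other settings, with an adjusted p of up to 0.0697, and mt-Nd1 in all 12. Fewer members passed when single libraries were left out: 0 without BXCL701 day 14 8 h replicate 3 or 16 h replicate 2, and 1 without day 14 1 h replicate 1 or 3, or without day 1 1 h replicate 2 or 3, 8 h replicate 1 or 3, or 16 h replicate 1 or 3. On day 7 against day 1, no member was called by limma, 6 had an unadjusted p below 0.05, and 0.12% of genes were called; mt-Nd1 differed by 0.27 (SE 0.07, adjusted p = 0.0688). On day 14 against day 7, none was called, 2 had an unadjusted p below 0.05, and 0.012% of genes were called; these were mt-Co2, at -0.55 (SE 0.14) alone and 0.00 (SE 0.06) with its copy, and mt-Co1, at 0.25 (SE 0.11) alone and 0.21 (SE 0.08) with its copy.

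Across hours in BXCL701 tumours of days 7 and 14, no member was called by limma at 1 h (0.012% of genes), 8 h (0.132%) or 16 h (0.00602%) against 0 h, with 1, 3 and 0 members at an unadjusted p below 0.05. The 3 members at 8 h were mt-Rnr1, at 0.37 (SE 0.13, adjusted p = 0.370), mt-Rnr2, at 0.36 (SE 0.16, adjusted p = 0.514), and mt-Atp6, at 0.44 (SE 0.17, adjusted p = 0.468) alone and 0.04 (SE 0.12) with its copy.

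mt-Nd6 was set against the complex I genes of the heavy strand's transcript. Its value was a median of 0.0539 of the sum of the 6 complex I genes of the heavy strand's transcript, between 0.0324 in BXCL701 day 7 0 h replicate 2 and 0.108 in vehicle day 14 replicate 2. On day 14 the ratio was 0.0515 ± 0.0106 (SD, n = 12) with BXCL701 and 0.0779 ± 0.0265 (n = 3) with vehicle. On day 7 it was 0.0575 ± 0.0167 (n = 12) with BXCL701 and 0.0516 ± 0.0093 (n = 3) with vehicle, and on day 1 0.0543 ± 0.0114 (n = 9) with BXCL701 and 0.0575 ± 0.0137 (n = 3) with vehicle. The ranges of the 2 treatments overlapped on each day. The heavy strand sum includes mt-Nd5 and mt-Nd4l, which moved with the length index, and mt-Nd3 and mt-Nd4l without their copies. Whether reads were counted by strand is not given, so the value of mt-Nd6 may hold reads of transcripts antisense to it. The ratio therefore cannot be read as the light strand against the heavy strand.

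The nuclear genes of the same complexes were set beside the mitochondrial ones. On day 1, 74 of 75 nuclear subunits of complexes I to V had a negative difference between BXCL701 and vehicle (median -0.33, 0 called), where 14 of 15 mitochondrial members had a positive one. With the length index in the model, the median was -0.10 for the nuclear subunits, and without vehicle day 1 replicate 2 it was -0.06 for the nuclear subunits. On day 7, 73 of 75 were positive (median 0.31, 0 called), and the median was 0.00 with the length index in the model. On day 14, 74 of 75 were negative with a median of -0.40, and 5 of 75 fell, where 3.29% of all tested genes were called: Ndufc2 of complex I by 0.55, Uqcrb of complex III by 0.51, Ndufa4 and Cox7c of complex IV by 0.53 and 0.54, and Atp5f1 of ATP synthase by 0.41 (SE 0.11, adjusted p = 0.0349). Without vehicle day 14 replicate 2, none of them was called and the median was -0.14. With the length index in the model, 18 of 75 fell, where 2968 of all 16613 tested genes were called. At 0 h of days 7 and 14 the median was -0.17, with 0 called.

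Of the 99 different genes in 5 lists of mitochondrial RNA, ribosome, biogenesis and stress genes, 1 rose and 1 fell on day 14, where 3.29% of all tested genes were called. Neither was called without vehicle day 14 replicate 2. With the length index in the model, 5 rose and 15 fell, and 2968 of all 16613 genes were called. Of 15 genes of mitochondrial transcription and replication, none was called by limma and 4 had an unadjusted p below 0.05; Polg, the mitochondrial DNA polymerase, differed by 0.31 (adjusted p = 0.0549) and Ssbp1, the mitochondrial single-stranded DNA-binding protein, by -0.35 (adjusted p = 0.110). Of 20 genes of mitochondrial RNA processing and decay, none was called and 3 had an unadjusted p below 0.05; Slirp, which binds and stabilises mitochondrial mRNAs, differed by -0.61 (adjusted p = 0.0578). Of 40 mitochondrial ribosomal proteins, 39 were negative and 1, Mrps14, fell, by 0.56 (adjusted p = 0.0231). Of 10 regulators of mitochondrial biogenesis, Pprc1, a coactivator of the PGC-1 family, rose by 0.56 (adjusted p = 0.0136), and Tfam, which packages mitochondrial DNA and starts its transcription, differed by -0.43 (adjusted p = 0.364). Of 15 genes of mitochondrial stress and mitophagy, none was called and 1 had an unadjusted p below 0.05, Bnip3, a mitophagy receptor, at -0.81 (adjusted p = 0.0663). On days 1 and 7 and at 0 h of days 7 and 14 no gene of these 5 lists was called.

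All 6 markers of pancreatic tumour epithelium (Krt8, Krt18, Krt19, Epcam, Msln and Cdh1) passed the filter, Krt8 the highest and Epcam the lowest at the median, with a summed level of 16782 to 85435, and 6 fibroblast markers summed to between 62254 and 729489; no gene of either list was called on day 14. Markers of other tissue in the samples varied widely between libraries. The summed level of 14 skeletal muscle markers ran from 179 to 350300, that of 12 keratinocyte markers from 155 to 27569, of 10 adipocyte markers from 1741 to 61786 and of 5 red blood cell markers from 894 to 42274. On day 14, BXCL701 minus vehicle, none of these 4 lists had a called gene, with medians of -0.44, -1.48, 0.97 and -0.40. Of 6 leukocyte markers, all were positive on day 14, with a median of 0.91, and 1 rose. Vehicle day 14 replicate 2, the library on which the day 14 calls of mitochondrial genes rested, had the lowest leukocyte sum of all 42 libraries. Their part in the differences of mitochondrial genes was not tested beyond a fit with muscle as a covariate.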

How the data were processed

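Bulk RNA-seq was made from 42 subcutaneous Pan02 tumours, 3 mice in each of 14 groups. Reads were trimmed with Trimmomatic 0.36 and aligned with Bowtie 0.12.9 to GRCm38, per the submitters' processing notes. The deposited table of values per gene is a signal scaled per library by the authors: its values are not whole numbers, so limma 3.58.1 (R 4.3.3) replaced the planned edgeR test. A log2 FPKM table, also deposited by the authors, served for levels per length and as an alternative. Of 47729 rows, the 16613 that reached 10 in 3 or more libraries were tested on log2(value + 1) in 1 model of 14 groups with intensity trend and robust variances (28 residual degrees of freedom). Fold changes on this scale understate those of low genes. Benjamini-Hochberg adjustment ran over all 16613 genes in each of 26 comparisons, and "called" means an adjusted p below 0.05. The precision of single values in reads is unknown, since no raw counts were used; the sums per library were between 19133149 and 26633378. A second copy of the FPKM table was not used. The test was tried on simulated data first.

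Members were matched by symbol. Copies were found with BLAST 2.17.0 among GENCODE M21 transcripts (GRCm38), and sequences were read from them. The length index used the 11487 genes with a mean of at least 100; 99.6% of tested genes had a length. Python 3.11.15, pandas 2.3.3, NumPy 2.4.6 and matplotlib 3.10.9 were used. The members and gene lists were chosen with earlier results of these data known. Every member may be named; genes outside the members were named among the 3 of a list with the smallest p in a treatment comparison, and the 6 epithelium markers as a check of the tissue. Replicates are separate mice, numbered in accession order. Alternatives were other scalings, no filter, the FPKM table, no trend, covariates, only the libraries compared, and each library left out; sums with copies and the difference of day 14 minus day 1 were added after seeing the data.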

Additional observations from a re-analysis of the deposited data

How the results depend on the processing

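The number of members called depended on the setting in several comparisons. The number over all genes moved too. For BXCL701 against vehicle on day 14 it was 547 of 16613 in the main model. With the length index as a covariate it was 2968. For BXCL701 against vehicle on day 14, with 3 called, 1 was called with equal sums over all other rows, 1 with no filter, 1 in log2 FPKM, 0 with only the libraries compared, and 5 with the length index as a covariate, with or without copies summed. At 0 h of days 7 and 14, and at 0 h of day 14, 1 was called with that covariate, against 0. At 1 h of day 14, with 1 called, 0 were called with median-of-ratios factors, equal sums, no filter, log2 FPKM, no trend, the muscle covariate and only the libraries compared, and 2 with the length index, with or without copies. At 8 h of day 14, with 1 called, 2 were called with the length index, 3 with copies and the length index, and 0 with only the libraries compared. At 16 h of day 14, with 0 called, 2 were called with the length index and 1 with copies and the length index. For vehicle day 14 against day 1, with 4 called, 2 were called with equal sums, 1 in log2 FPKM, 9 with copies and the length index, and 0 with only the libraries compared. For BXCL701 day 7 against day 1, with 0 called, 4 were called with the length index and 5 with copies too. mt-Nd4l on day 14 turned to -0.16 with copies and the length index, and mt-Co2 in BXCL701 day 14 against day 1 turned to 0.18 with copies and 0.19 with copies and the length index. Over all settings run with all libraries, the median difference of the members ranged from 0.20 to 0.48 on day 1, from -0.08 to 0.15 on day 7, from -0.19 to 0.01 on day 14 and from -0.19 to -0.12 at 0 h. The cause was not tested. Fits of only the libraries compared also had fewer samples.

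Leaving out 1 library at a time, the counts ran from 0 to 4 for BXCL701 on day 14, 0 to 2 at 0 h of both days, 0 to 3 at 0 h, 0 to 3 at 1 h, 0 to 2 at 8 h and 0 to 3 at 16 h of day 14. They ran from 0 to 5 for vehicle day 14 against day 1, 0 to 3 for vehicle day 14 against day 7, 0 to 4 for BXCL701 day 14 against day 1, and 0 to 1 for the difference of day 14 minus day 1; all other comparisons gave 0 throughout. All of these upper ends except that for BXCL701 day 14 against day 1 came without vehicle day 14 replicate 3. Leaving out that library raised the number of genes called in the whole table too. For BXCL701 on day 14 it went from 547 to 2021. For vehicle day 14 against day 1 it went from 10 to 1018. No paired analysis was possible because the replicate numbers follow accession order and each mouse was harvested once. With no raw counts, the depth behind a low value is unknown.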
